A study of Mus musculus with 12 samples.

Results

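BMDM that received LPS together with human β-defensin 3 (hBD3) were compared with untreated BMDM after 1 h, to see what is left of the early LPS response when hBD3 is present. The comparison uses 6 of the 12 arrays of the series, 3 for each group, chosen by the samples' titles. All cells were bone marrow-derived macrophages of Balb/c mice, grown with M-CSF and left overnight without it before treatment. The LPS plus hBD3 group received both agents at once, the other treated groups received LPS alone or hBD3 alone, and the untreated group received neither. The sample labels give 50 ng/mL for LPS and 5 mg/mL for hBD3 and leave the dose of the combination out, while the study's methods give hBD3 in μg/mL. The submitters' design note names 3 separate mice per treatment and does not say whether arrays of the same replicate number share a mouse. Levels are quantile normalized log2 signals of an Illumina MouseRef-8 array, and log FC is the difference of 2 group means on that scale.

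LPS is recognized on macrophages by TLR4 with its partners MD-2 and CD14, and the signal passes through the adaptors MyD88 and TRIF to NF-κB and the MAPK pathways. The early targets need no new protein synthesis. They include chemokines and cytokines, immediate early transcription factors such as subunits of AP-1, and inhibitors that turn the same pathways off again. hBD3 is a cationic antimicrobial peptide of human epithelia.

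Each LPS plus hBD3 array had 9236 to 9416 probes detected at a detection p under 0.01 (median 9283), and each untreated array 9427 to 9923 (median 9709), of 25697 probes. Within their groups the arrays correlated at 0.987 to 0.990 with LPS plus hBD3 and at 0.987 to 0.991 untreated, while LPS replicate 1 stood apart at 0.968. Of 17 macrophage markers, 15 were detected on all 6 arrays, and their summed linear signal was 70520 to 75050 with LPS plus hBD3 and 69820 to 73920 untreated. None of 15 lymphocyte markers was detected throughout, nor were 16 of 18 neutrophil, 10 of 12 dendritic cell and 13 of 14 stromal and erythroid markers. In such bulk RNA, fewer cells of a kind and less RNA per cell cannot be told apart. The LPS receptor genes were measured at similar levels in both groups. Tlr4 lay at 8.60, 8.46 and 8.54 with LPS plus hBD3, against 9.28, 8.47 and 8.59 untreated. Ly96, which encodes MD-2, lay at 8.15, 8.26 and 8.10 with LPS plus hBD3, against 8.72, 8.11 and 8.30 untreated. Cd14 lay at 13.40, 12.94 and 13.12 with LPS plus hBD3 and at 13.42, 12.96 and 13.10 untreated.

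Promoter sequences of 5 of the genes described below are shown first, because these genes lay higher with LPS plus hBD3 and their windows hold motifs of factors that LPS activates. The windows run from 250 bases before to 50 bases after the gene start (RefSeq, GRCm38.p6) and are read 5′ to 3′ on the strand of the gene. Capitals mark matches to the NF-κB consensus in Cxcl1, Cxcl2, Ier3 and Nfkbia, and to the CArG box, the site of serum response factor, in Zfp36.
Cxcl1 (chr5:90890995-90891294, + strand): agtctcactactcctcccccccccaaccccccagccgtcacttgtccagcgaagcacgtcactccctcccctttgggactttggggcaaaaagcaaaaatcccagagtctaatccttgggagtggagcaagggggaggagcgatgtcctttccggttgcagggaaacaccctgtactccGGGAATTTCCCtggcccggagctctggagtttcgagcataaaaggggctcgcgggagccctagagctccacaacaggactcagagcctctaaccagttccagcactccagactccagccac
Cxcl2 (chr5:90903649-90903948, + strand): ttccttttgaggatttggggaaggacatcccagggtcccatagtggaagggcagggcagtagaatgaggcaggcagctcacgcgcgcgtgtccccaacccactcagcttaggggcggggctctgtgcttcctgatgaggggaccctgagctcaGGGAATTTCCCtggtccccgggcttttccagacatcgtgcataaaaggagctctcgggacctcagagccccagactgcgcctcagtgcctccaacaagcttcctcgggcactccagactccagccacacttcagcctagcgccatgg
Ier3 (chr17:35821463-35821762, + strand): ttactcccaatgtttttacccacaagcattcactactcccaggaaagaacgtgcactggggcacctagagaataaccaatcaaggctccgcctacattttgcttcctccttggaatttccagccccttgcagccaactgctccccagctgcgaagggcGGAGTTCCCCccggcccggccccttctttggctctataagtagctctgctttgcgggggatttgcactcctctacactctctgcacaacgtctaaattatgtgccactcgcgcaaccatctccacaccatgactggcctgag
Nfkbia (chr12:55492598-55492897, - strand): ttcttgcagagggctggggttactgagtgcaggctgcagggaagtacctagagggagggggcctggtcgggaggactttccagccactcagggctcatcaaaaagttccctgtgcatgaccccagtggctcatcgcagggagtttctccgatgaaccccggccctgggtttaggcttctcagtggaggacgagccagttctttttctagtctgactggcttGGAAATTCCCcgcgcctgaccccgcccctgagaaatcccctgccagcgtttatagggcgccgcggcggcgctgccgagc
Zfp36 (chr7:28379179-28379478, - strand): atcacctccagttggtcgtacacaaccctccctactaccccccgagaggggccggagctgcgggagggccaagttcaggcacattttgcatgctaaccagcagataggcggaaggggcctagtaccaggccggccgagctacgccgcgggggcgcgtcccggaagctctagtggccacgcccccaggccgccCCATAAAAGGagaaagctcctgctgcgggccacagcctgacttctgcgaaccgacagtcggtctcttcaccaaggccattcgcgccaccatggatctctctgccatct
Both strands were searched. Cxcl1 and Cxcl2, neighbouring chemokine genes, hold the same 11 bases, GGGAATTTCCC, which are 2 overlapping matches on opposite strands, starting 71 bases before the gene start in Cxcl1 and 97 bases before it in Cxcl2. A match begins 92 bases before the start of Ier3 and 29 bases before that of Nfkbia. The NF-κB consensus occurs in 4.51% of all 32851 promoter windows, the CArG box in 1.63% and the AP-1 motif TGANTCA in 7.81%. The promoter table lists 16 of the 26 genes with a log FC above 0.5, and Egr1, Phlda1, Nfkbiz, Ccl4 and Osm are among those it lacks. By gene, 6 of these 16 hold the NF-κB consensus in at least 1 window (Cxcl1, Cxcl2, Fos, Ier3, Nfkbia and Nfkbid), 1 holds the CArG box and 0 the AP-1 motif. Of the 26 genes that LPS alone raised past the test, 21 are listed, and 7, 1 and 2 of these hold the same motifs. Over all genes of the table the shares were 5.14%, 1.81% and 8.97%. The windows of Tnf, Socs3, Dusp1, Il1b and Zc3h12a hold none of the 3 motifs.

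Over all 25697 probes the difference between LPS plus hBD3 and untreated BMDM was small, and its largest values were higher levels. The log FC exceeded 1 for 9 probes and 0.5 for 28, and lay below -0.5 for 7 and below -1 for 0. The range was -0.75 to 2.14. LPS alone, against the same untreated arrays, gave 50 probes above 1 and 95 above 0.5, and 296 below -0.5 and 44 below -1. Only 27 probes passed the adjusted threshold of 0.05 from limma with LPS alone, and all 27 were higher. The part of LPS replicate 1, the array that stood apart, in the lower counts of LPS was not tested. For LPS plus hBD3 the balance between the ends depended on the scale and on single arrays. Under median scaling 16 probes lay above 0.5 and 146 below -0.5, and without LPS plus hBD3 replicate 3 there were 44 above and 83 below. The probes above 1 were, in order, those of Cxcl1, Actb (1 of its 5 probes), Tnf, Egr1, Cxcl2, Socs3, Il1b, Nfkbiz and Dusp1.

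No probe passed limma's test after Benjamini-Hochberg adjustment without a block (0.00% of 25697). Without adjustment, 349 (1.36%) had a higher level at p under 0.05 and 287 (1.12%) a lower one. With the replicate number as a block, 2 probes passed (0.00778%), and both rose, while 456 (1.77%) had a higher and 388 (1.51%) a lower level before adjustment. These were Egr1, a zinc finger transcription factor of the immediate early response, and Phlda1, a gene linked to the control of apoptosis. The count with the block changed with each replicate number left out. In fits chosen after seeing the data, 21 probes passed without all arrays of replicate 1, 0 without those of replicate 2 and 0 without those of replicate 3, so that the calls of Egr1 and Phlda1 were lost without replicate 2 or 3. All 21 were higher with LPS plus hBD3, and 19 of them were among the 28 with a log FC above 0.5, the others being Cdc42ep2 and Col4a1, a collagen gene named after its values were seen. The arrays of both groups did not overlap for 1840 probes (7.16%), of which 964 were higher (3.75%) and 876 lower (3.41%).

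Egr1 lay at 7.78, 9.22 and 8.96 with LPS plus hBD3, against 6.60, 7.31 and 6.64 untreated. Every LPS plus hBD3 array lay above every untreated array, and replicate 1 was the lowest of its group in both. The log FC was 1.80 (SE 0.47 without and 0.17 with the block, adjusted p = 0.9999 and 0.0137 from limma), a 3.49-fold difference. Phlda1 lay at 7.96, 7.66 and 7.83 with LPS plus hBD3, against 7.21, 6.84 and 6.89 untreated. Its 3 differences by replicate number, 0.75, 0.82 and 0.94, were close to each other, and the log FC of 0.83 (SE 0.14 without and 0.083 with the block) had an adjusted p of 0.0137 from limma with the block and of 0.9999 without it. Without the arrays of replicate 1 the log FC was 2.06 for Egr1 and 0.85 for Phlda1 in the fit with the block. Neither passed when the block was combined with median scaling or with background correction.

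**Figure D1:**
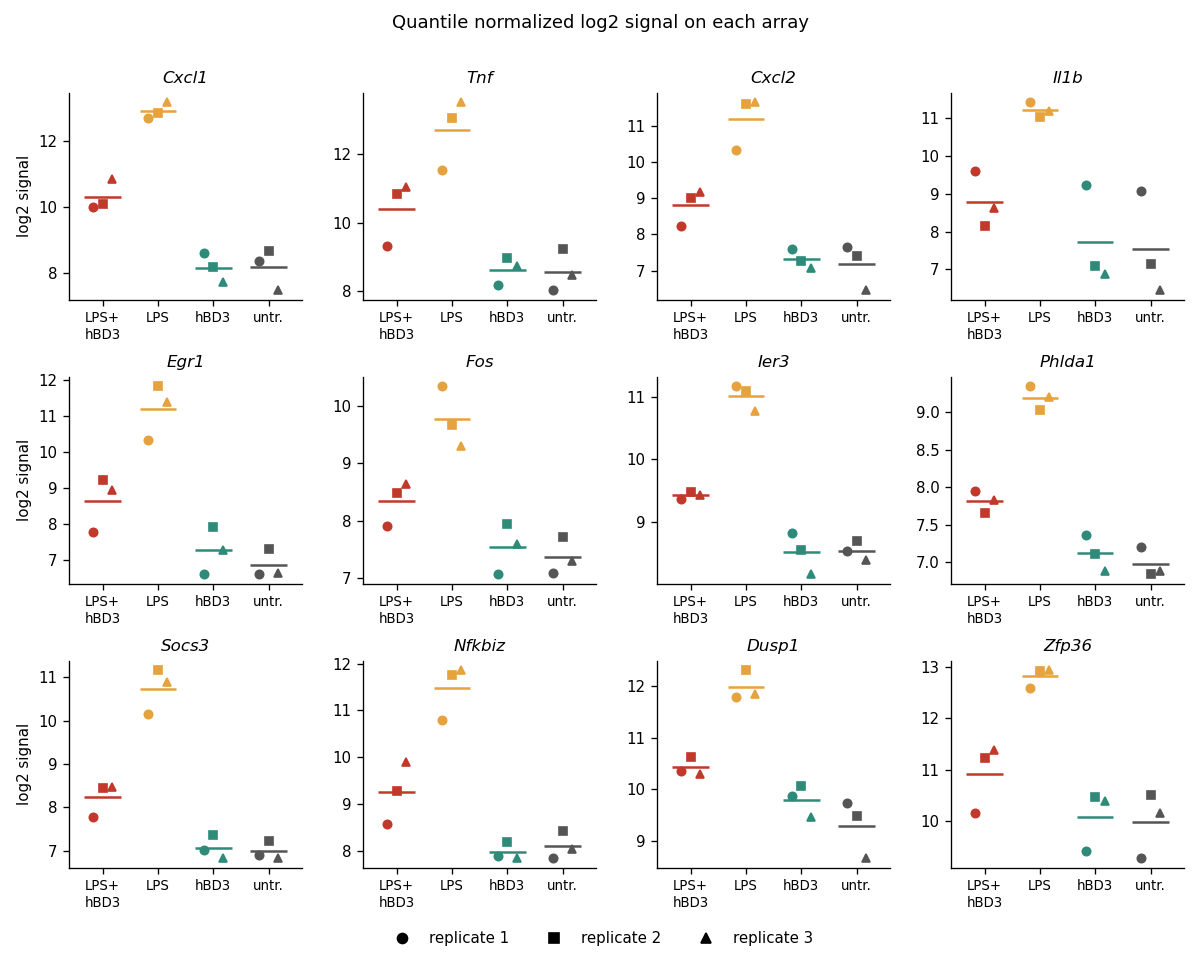
Quantile normalized log2 signal (vertical axis, a different range in each panel) of 12 genes on each of the 12 arrays, by treatment (horizontal axis). Marker shapes give the replicate number and lines the mean of 3 arrays. The LPS plus hBD3 arrays lie above all untreated arrays in every panel except Il1b and Zfp36, and below all LPS arrays in all 12 panels.

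Among the early cytokines and chemokines, the neutrophil attractants Cxcl1 and Cxcl2 and the cytokine gene Tnf had the largest log FC. Cxcl1 lay at 9.98, 10.08 and 10.84 with LPS plus hBD3, against 8.35, 8.67 and 7.47 untreated, and was the gene with the largest log FC, 2.14 (SE 0.33), a 4.41-fold difference. Tnf, the gene of TNF-α, lay at 9.33, 10.84 and 11.05 with LPS plus hBD3, against 8.03, 9.23 and 8.48 untreated (log FC 1.83, SE 0.56). Cxcl2, another ligand of the receptor that Cxcl1 binds, lay at 8.23, 9.01 and 9.17 with LPS plus hBD3, against 7.66, 7.40 and 6.45 untreated (log FC 1.63, SE 0.40). For these 3 genes no array of one group reached into the other, and each had an adjusted p of 0.9999 from limma without the block, while Cxcl1 had 0.220, Tnf 0.158 and Cxcl2 0.9998 with it. The difference was smaller in replicate 1 than in replicate 3 for all 3, for example 0.58 against 2.71 in Cxcl2.

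Il1b, which encodes the precursor of IL-1β, overlapped. It lay at 9.60, 8.15 and 8.62 with LPS plus hBD3, against 9.07, 7.14 and 6.45 untreated (log FC 1.24, SE 0.72). Replicate 1 was the highest array of its group in both, and within each replicate number the LPS plus hBD3 array was higher, by 0.53, 1.01 and 2.17. Ccl4, a chemokine for monocytes and T cells, had a log FC of 0.87 (SE 0.45), and its second probe gave 0.87 as well. Osm, the cytokine oncostatin M, had 0.68 (SE 0.32) and Gdf15, a stress-induced cytokine, 0.64 (SE 0.23). Ccl3, a close relative of Ccl4, was lower in replicate 1 (8.99 with LPS plus hBD3 and 9.09 untreated) and higher in the others, with a log FC of 0.54 (SE 0.54).

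Over the list, 27 of 28 genes were measured and 11 were detected on all 3 arrays of either group. Of the 27, 0 passed the test in either direction with or without the block, 5 were higher without overlap beside 3.79% of all genes, and 1 was lower without overlap, beside 3.39%. Higher levels in all 3 replicate numbers were found for 10 of 27, beside 12.4% of all genes. The median log FC was 0.09 over the 27 genes and 0.68 over the 11 detected ones, beside 0.004 over all genes and 0.004 over all detected genes. Il6, Il10, Csf2, Ifnb1 and Il1a, named after their values were seen, were among the genes not detected on any array of the 2 groups, so that no difference in them could be measured at 1 h.

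Among the immediate early transcription factors, Egr1 was followed by Fos, a subunit of AP-1. Fos lay at 7.91, 8.48 and 8.63 with LPS plus hBD3, against 7.10, 7.72 and 7.30 untreated (log FC 0.97, SE 0.30). Ier3, an early response gene that affects cell survival, lay at 9.36, 9.48 and 9.42 with LPS plus hBD3, against 8.53, 8.69 and 8.38 untreated (log FC 0.88, SE 0.16, adjusted p = 0.9999 from limma without and 0.101 with the block). Both groups kept apart for Fos and Ier3. Klf2, a Krüppel-like factor, had a log FC of 0.59 (SE 0.22) with overlapping arrays, and Junb, another AP-1 subunit, one of 0.42 (SE 0.28). Junb was higher by 0.18 to 0.66 in each replicate number.

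The remaining members of the list showed little difference. Csrnp1, a nuclear protein, had a log FC of 0.20 (SE 0.18) although LPS alone raised it by 1.69. Egr2 had a log FC of 0.28 (SE 0.82) and Irf1, a regulator of interferon genes, of 0.18 (SE 0.32), and the sign of each was the opposite after median scaling or when untreated replicate 1 was left out, for Egr2 also when LPS plus hBD3 replicate 2 was. Within the replicate numbers Irf1 was higher by 0.13, 0.13 and 0.28 (block SE 0.10, adjusted p = 0.9998 from limma). These values are of its brightest probe. The other probes of Irf1 had a log FC of 0.31, 0.17, 0.35 and 0.44, and each was higher in every replicate number, with overlapping groups. Of 28 measured genes of 29, 14 were detected, 1 passed with the block (Egr1) and 0 without it, and 5 were higher and 0 lower without overlap, beside 3.79% and 3.39% of all genes. The median log FC was 0.05 over the 28 and 0.19 over the 14 detected genes.

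Of all lists, the inhibitors that feed back on NF-κB and MAPK held the largest number of genes whose groups did not overlap. Socs3, which blocks cytokine receptor signaling, lay at 7.78, 8.44 and 8.48 with LPS plus hBD3, against 6.90, 7.23 and 6.83 untreated (log FC 1.25, SE 0.26). Nfkbiz, a nuclear IκB protein that also works as a coactivator of NF-κB, lay at 8.57, 9.27 and 9.90 with LPS plus hBD3, against 7.84, 8.42 and 8.04 untreated (log FC 1.15, SE 0.34). Dusp1, a phosphatase that inactivates MAPK, lay at 10.36, 10.63 and 10.29 with LPS plus hBD3, against 9.74, 9.48 and 8.67 untreated (log FC 1.13, SE 0.26). The groups did not overlap for these 3 genes. With the block the adjusted p from limma was 0.123 for Socs3, 0.570 for Nfkbiz and 0.186 for Dusp1.

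Zfp36, which encodes tristetraprolin, a protein that speeds the decay of cytokine mRNA, lay at 10.16, 11.22 and 11.39 with LPS plus hBD3, against 9.27, 10.50 and 10.16 untreated (log FC 0.95, SE 0.39). Its lowest LPS plus hBD3 array lay below the highest untreated array, but each replicate number gave a higher level, by 0.89, 0.72 and 1.23. Dusp2, another MAPK phosphatase, had a log FC of 0.76 (SE 0.26), and 0.52 (SE 0.20) at its second probe. Nfkbia, which encodes IκBα, lay at 10.41, 10.88 and 11.02 with LPS plus hBD3, against 10.14, 10.36 and 10.02 untreated (log FC 0.60, SE 0.25). Zc3h12a, an RNase that degrades cytokine mRNA, had a log FC of 0.59 (SE 0.15), and Nfkbid, a further nuclear IκB protein, 0.55 (SE 0.12). Dusp2, Nfkbia, Zc3h12a and Nfkbid kept their groups apart. Tnfaip3, which encodes the ubiquitin-editing enzyme A20, had 0.49 (SE 0.27) with overlap.

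Of 28 measured genes of 30 in this list, 23 were detected, 0 passed in either direction with or without the block, 7 were higher without overlap, beside 3.79% of all genes, and 0 lower. Higher levels in all 3 replicate numbers were found for 14 of 28. The median log FC was 0.16 over the 28 genes and 0.33 over the 23 detected ones. With LPS alone the same medians were 0.45 and 0.85. The 3 lists were set with earlier results of these data known.

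**Figure D2:**
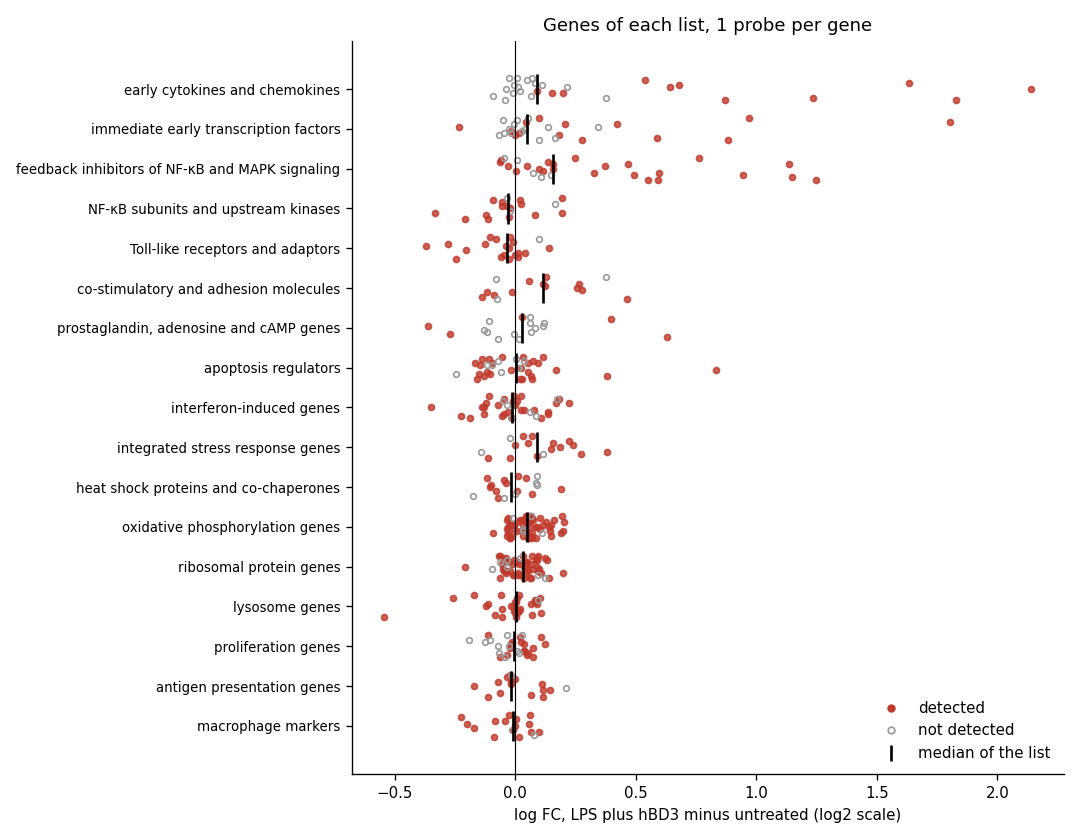
Log FC of LPS plus hBD3 minus untreated (horizontal axis, log2 scale) of the measured genes of 17 lists, 1 probe per gene. Filled points were detected on all 3 arrays of either group, open points were not, and black bars are list medians. The points beyond 0.5 belong to the top 3 lists, apart from Rgs1 and Phlda1, and the lowest point is Ctsa in the lysosome list.

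The other lists held at most 3 higher and 2 lower genes without overlap each. The NF-κB subunits and upstream kinases (18 measured), the Toll-like receptors and adaptors (20) and the interferon-induced genes (34) had 0 members without overlap in either direction, with medians of -0.03, -0.03 and -0.01. Of 35 apoptosis regulators, 1 passed with the block (Phlda1), and 1 was higher and 2 lower without overlap, shares near the 3.79% and 3.39% of all genes, with a median of 0.005. Of 17 genes of the integrated stress response 0 were separated and the median was 0.09. Of 15 co-stimulatory and adhesion molecules 1 was higher without overlap and the median was 0.12. Over all measured genes these medians were no lower than those of the cytokines and transcription factors. Over detected genes alone both lists had 0.12, beside 0.68 for the cytokines and 0.19 for the transcription factors. Nupr1, a stress-induced chromatin protein, had the largest log FC of the stress response genes, 0.38 (SE 0.15), and Chac1, which degrades glutathione, had 0.27 (SE 0.20). The lists of 60 oxidative phosphorylation, 57 ribosomal protein, 30 lysosome and 28 proliferation genes had medians of 0.05, 0.03, 0.002 and -0.004.

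Single members of other lists stood out from them. Rgs1, which ends signaling by G proteins, lay at 10.08, 9.70 and 9.71 with LPS plus hBD3, against 9.60, 9.50 and 8.50 untreated (log FC 0.63, SE 0.26), and its other probes had 0.26 and 0.39. Adora2b, an adenosine receptor, overlapped between the groups but was higher in each replicate number, at 7.84, 6.75 and 6.94 with LPS plus hBD3 against 7.38, 6.40 and 6.55 untreated (log FC 0.40, SE 0.42 without and 0.071 with the block, adjusted p = 0.9999 and 0.477 from limma). Cd69, an early activation marker, had a log FC of 0.46 (SE 0.16) with groups that did not overlap. It was detected on 3 LPS plus hBD3 arrays and 2 untreated arrays.

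LPS alone raised 27 probes of 26 genes past the same test (0.105%), which gives a set of probes raised by LPS on these arrays. The set was chosen on high LPS and low untreated arrays, which the comparisons of LPS plus hBD3 with untreated and with LPS share, so all counts and values over the set are a description. With LPS plus hBD3 all 27 had a log FC above 0 against untreated BMDM, from 0.05 to 2.14 with a median of 0.60, while LPS alone gave 0.53 to 4.75 with a median of 2.34. The LPS plus hBD3 arrays lay above all untreated arrays for 20 of the 27 and below all LPS arrays for 27 of 27. The level with LPS plus hBD3 was lower than with LPS in the direct test for 14 of the 27 (0.0545% of all probes) without the block and for 22 with it, when 34 of all probes were lower (0.132%).

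The hBD3 arrays are another control, whose levels were not in the contrast that chose these probes, though they shared in the estimate of the spread and leaving out hBD3 replicate 2 or 3 brought the number of probes raised by LPS to 25. Against BMDM treated with hBD3 alone, LPS plus hBD3 gave a log FC above 0 for all 27, from 0.09 to 2.15 with a median of 0.68, and 17 did not overlap, beside 5.27% of all probes. Cxcl1 lay at 8.59, 8.17 and 7.71 with hBD3 alone, 2.15 below its level with LPS plus hBD3 (SE 0.33), and Tnf lay 1.78 below (SE 0.56). Other genes changed more with the control. With hBD3 alone Dusp1 lay 0.50 and Egr1 0.42 above untreated. LPS plus hBD3 exceeded hBD3 by 0.63 for Dusp1 (SE 0.26) and by 1.38 for Egr1 (SE 0.47), with overlapping arrays for Egr1. Nfkbid lay 0.32 below untreated with hBD3 alone, and LPS plus hBD3 exceeded hBD3 by 0.87 (SE 0.12). Outside the 27, Rgs1 exceeded hBD3 by 0.23 (SE 0.26) and Ccl3 by 0.08 (SE 0.54). No probe passed this comparison by limma, without or with the block, and at an unadjusted p under 0.05 without the block 574 were higher (2.23%) and 397 lower (1.54%). The smallest adjusted p with the block, 0.0589, was shared by Egr1, Ier3, Phlda1 and Nfkbid.

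**Figure D3:**
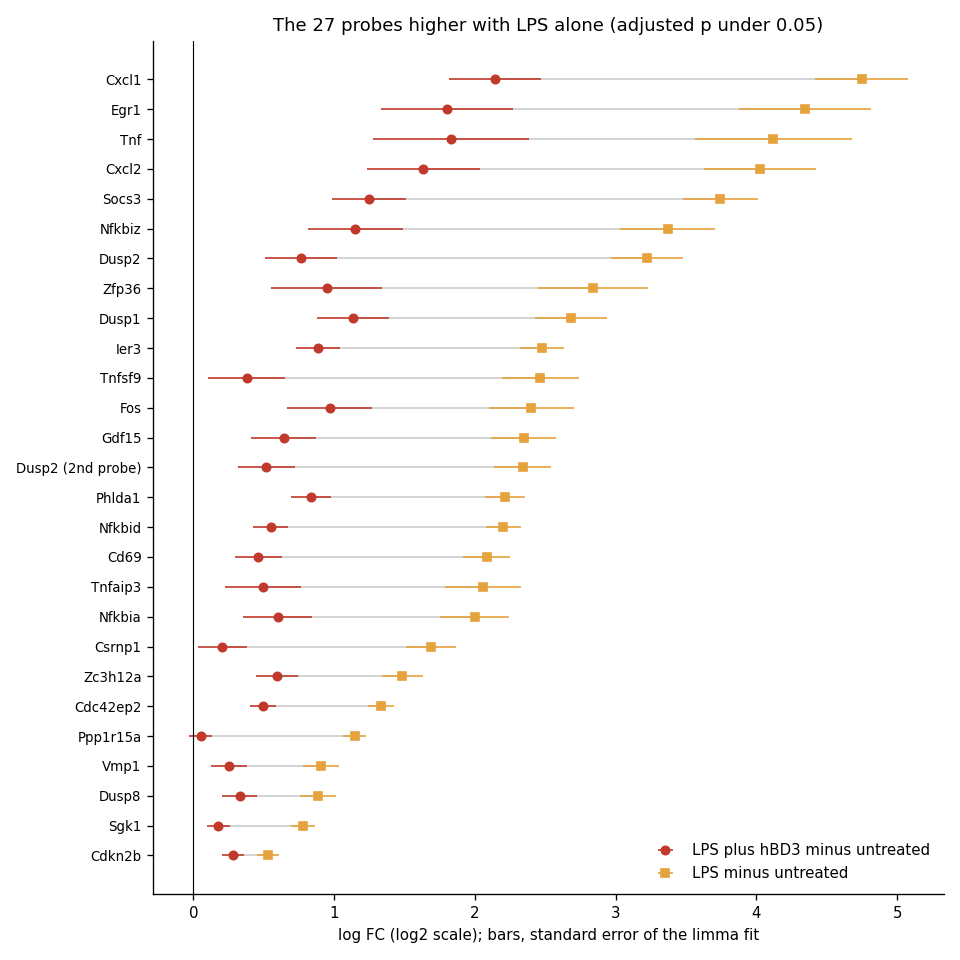
Log FC (horizontal axis, log2 scale) of the 27 probes that passed the test for higher levels with LPS alone, for LPS plus hBD3 minus untreated (circles) and LPS minus untreated (squares). Bars are the standard errors of the limma fit. All circles lie above 0 and to the left of their squares, from 2.14 for Cxcl1 to 0.05 for Ppp1r15a.

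What remained of the response differed in size between these genes, though no difference between genes was tested. Ppp1r15a, the phosphatase subunit also known as GADD34, lay at the low end. It had 9.35, 9.12 and 9.21 with LPS plus hBD3, 10.15, 10.35 and 10.45 with LPS, and 9.19, 9.17 and 9.17 untreated, so that its LPS plus hBD3 and untreated arrays overlapped. Its log FC against untreated was 0.05 (SE 0.08), and the sign turned under median scaling and without LPS plus hBD3 replicate 1. Sgk1, a kinase induced by stress and glucocorticoids, was the other gene without a higher level in every replicate number, with a log FC of 0.18 (SE 0.08) that turned negative under median scaling.

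Tnfsf9, a ligand that co-stimulates T cells, had a log FC of 0.38 (SE 0.27) with LPS plus hBD3 and of 2.46 with LPS. It lay at 6.59, 5.91 and 6.13 with LPS plus hBD3, at 7.63, 8.46 and 8.79 with LPS, and at 6.11, 5.74 and 5.64 untreated, and was detected on 2 LPS plus hBD3 arrays and 1 untreated array. Cdc42ep2, a binding partner of the GTPase Cdc42, had 0.49 (SE 0.092) and 1.33 with LPS, and its arrays were tightly grouped. It lay at 7.40, 7.46 and 7.35 with LPS plus hBD3, against 7.01, 6.86 and 6.85 untreated. Among the probes with a smaller response to LPS, Dusp8, a MAPK phosphatase, had 0.33 with LPS plus hBD3 and 0.89 with LPS. Cdkn2b, an inhibitor of cyclin-dependent kinases, had 0.28 with LPS plus hBD3 and 0.53 with LPS, the lowest LPS value of the 27, and its LPS plus hBD3 and untreated arrays did not overlap. It was detected on 3 LPS plus hBD3 arrays and 2 untreated arrays. The probe of Vmp1, a protein of autophagy, that LPS raised, 1 of 5 of that gene, had 0.25 with LPS plus hBD3 and 0.90 with LPS.

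The 28 probes with a log FC above 0.5 belong to 26 genes. They were picked by that difference, so the counts below describe them and test nothing. In 27 of them the level was higher with LPS plus hBD3 in each of the 3 replicate numbers, the exception being Ccl3, and 18 had groups that did not overlap. LPS alone, against the same untreated arrays, gave a log FC above 0.5 for 26 of the 28. The difference varied with the replicate number, with a median of 0.63 in replicate 1, 0.74 in replicate 2 and 1.22 in replicate 3, and replicate 3 gave the largest difference for 23 of the 28. Leaving out 1 of the 6 arrays kept 21 to 28 of these probes above 0.5, and brought the number above 0.5 to between 36 and 72, and the number below -0.5 to between 11 and 83.

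The probes above 0.5 that LPS alone did not bring above 0.5 were those of Mgp and Ccn2, with Ccn2 named after its values were seen. Both encode proteins of connective tissue, matrix Gla protein and connective tissue growth factor. Mgp lay at 6.06, 7.54 and 8.55 with LPS plus hBD3, against 5.58, 6.92 and 7.10 untreated (log FC 0.85, SE 0.61). It was detected on 3 LPS plus hBD3 arrays and 2 untreated arrays. Ccn2 lay at 7.57, 8.25 and 8.32 with LPS plus hBD3, against 6.93, 7.79 and 7.92 untreated (log FC 0.50, SE 0.27). Both overlapped and both were higher in each replicate number. The summed linear signal of 14 stromal and erythroid markers was 814, 1217 and 1218 with LPS plus hBD3 and 804, 1066 and 1004 untreated. Of the 14, 11 were detected on none of the 6 arrays, and the median log FC was 0.01. Only 1, the actin gene Acta2, was detected on all 3 arrays of either group. Its log2 levels were 7.66, 9.21 and 9.04 with LPS plus hBD3 and 7.70, 8.76 and 8.48 untreated, so the sum does not show that the 14 moved together. The part of such cells in these values was not tested.

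**Figure D4:**
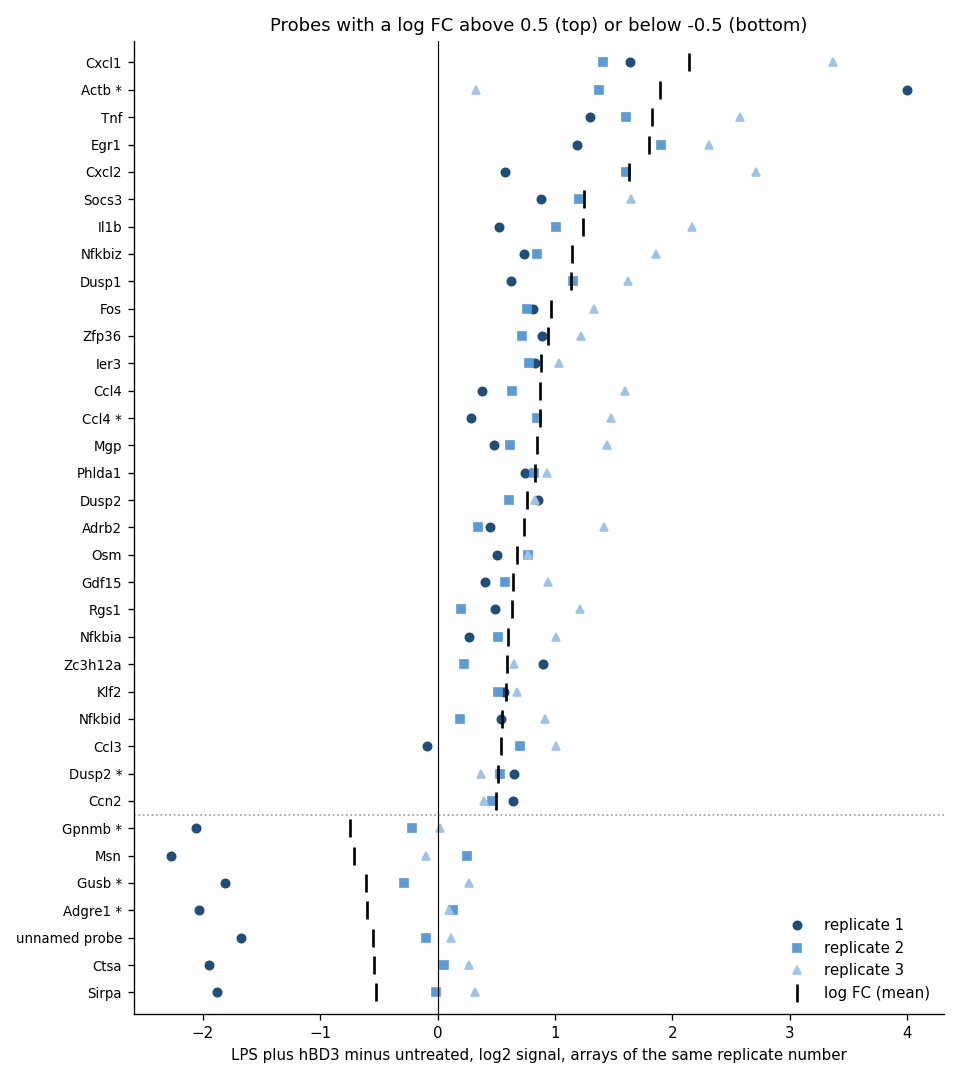
Difference in log2 signal, LPS plus hBD3 minus untreated (horizontal axis), between arrays of the same replicate number, for the 28 probes with a log FC above 0.5 and, below the dotted line, the 7 with a log FC below -0.5. Black bars give the log FC and asterisks mark probes that are not the brightest of their gene. The median difference of the upper 28 is 0.63, 0.74 and 1.22 in replicates 1, 2 and 3, and that of the lower 7 is -1.95, -0.01 and 0.11.

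No separated genes were found at the lower end. The 7 probes below -0.5 were those of Gpnmb, Msn, Gusb, Adgre1, Ctsa and Sirpa and 1 without a gene name, and 0 of them kept the groups apart. LPS plus hBD3 replicate 1 was the lowest of the 6 arrays for all 7. The median difference was -1.95 in replicate 1, -0.01 in replicate 2 and 0.11 in replicate 3, and without LPS plus hBD3 replicate 1 the log FC stayed below -0.5 for 0 of the 7 (median -0.19). Gpnmb, a glycoprotein of macrophages and melanocytes, had the lowest value at 1 of its 4 probes, with 9.43, 10.62 and 11.53 for LPS plus hBD3 against 11.48, 10.83 and 11.50 untreated (log FC -0.75, SE 1.03). At its brightest probe the levels were 13.63, 13.77 and 13.88 with LPS plus hBD3 and 13.54, 13.62 and 13.85 untreated. Msn, the membrane linker moesin with 1 probe, lay at 7.50, 8.29 and 8.99 with LPS plus hBD3, against 9.77, 8.03 and 9.09 untreated (log FC -0.71, SE 0.77).

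Probes of the same gene disagreed in the same replicate. For Gusb, a lysosomal glucuronidase, the probe below -0.5 differed by -1.81 in replicate 1, another probe by -0.84 and the brightest by -0.01. Adgre1, a surface marker of macrophages, differed by -2.03 in replicate 1 at the dimmest of its 3 probes and by -0.35 and -0.02 at the others. Ctsa, a lysosomal carboxypeptidase, differed by -1.95 at its brightest probe and by 0.27, 0.23 and -0.70 at 3 dimmer ones. Sirpa, an inhibitory receptor of macrophages, has 1 probe here and differed by -1.88.

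Actb, which encodes β-actin, stood among the highest values at 1 of its 5 probes. That probe lay at 11.57, 11.29 and 11.31 with LPS plus hBD3, against 7.57, 9.92 and 10.99 untreated (log FC 1.90, SE 1.05), so that the untreated arrays were the ones that varied, and the difference was 4.001, 1.37 and 0.32 in replicates 1 to 3. Its brightest probe lay at 14.02, 13.46 and 13.54 with LPS plus hBD3 and at 13.83, 13.60 and 13.54 untreated (log FC 0.02, SE 0.15), with a sign that turned under median scaling. The brightest probe of Gapdh, an enzyme of glycolysis, lay at 12.56, 12.35 and 12.24 with LPS plus hBD3 and at 12.64, 12.22 and 12.31 untreated. Such probes of replicate 1 also stood out with LPS alone, where the Gpnmb probe lay at 6.55 on replicate 1 and at 10.62 and 11.51 on the others. The reason for the disagreement between probes was not tested.

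**Figure D5:**
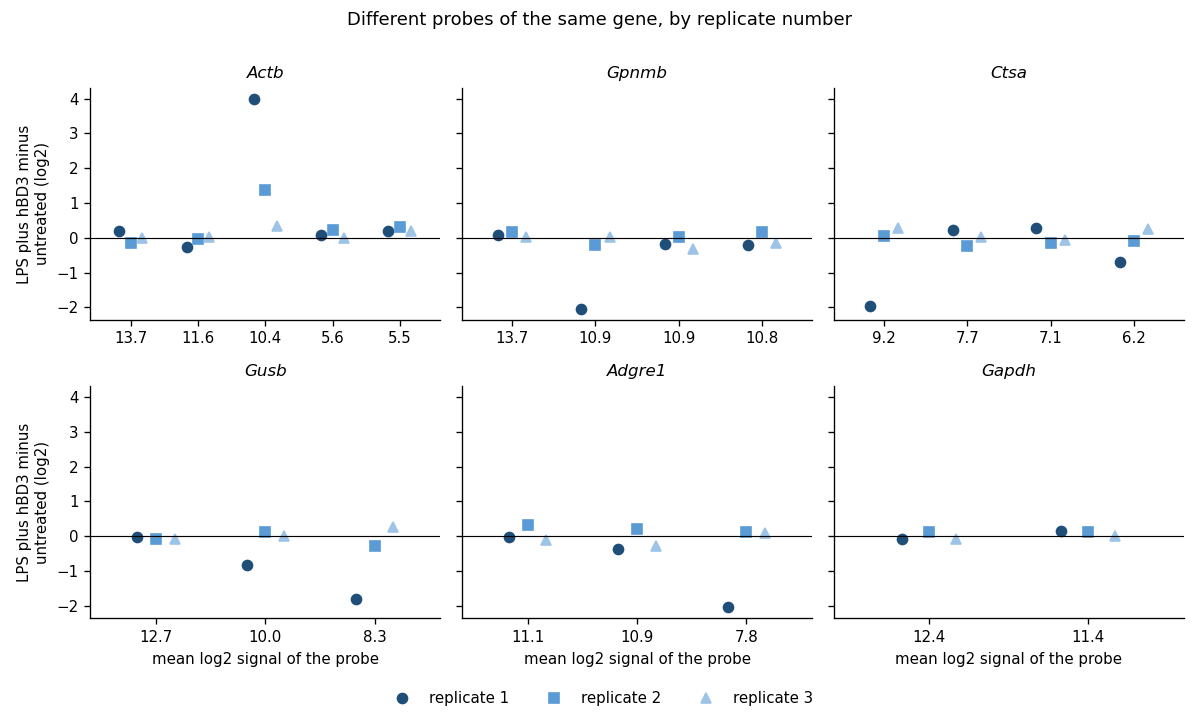
Difference in log2 signal, LPS plus hBD3 minus untreated (vertical axis), in each replicate number for every probe of 6 genes, ordered by the mean log2 signal of the probe (horizontal axis labels). In Gpnmb, Ctsa, Gusb and Adgre1 a single replicate 1 value near -2 stands apart from the other probes of the gene, in Actb 1 probe differs by 4.001, and the 2 Gapdh probes stay near 0.

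All values depend on the scale that quantile normalization sets. Median scaling moved the median log FC of the 9127 detected probes to -0.22, where quantile normalization had it at -0.0001. On that scale the 16 probes above 0.5 were all among the 28, and 25 of the 27 LPS-raised probes stayed above 0, the exceptions being Sgk1 and Ppp1r15a. The number of arrays, 3 in a group, limits the precision of every value.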

How the data were processed

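Expression was measured on 12 Illumina MouseRef-8 arrays, 3 per group. As deposited, the file holds the signal intensity that the authors' BeadStudio gave per probe, with no normalization between arrays (lowest 27.98), and, per the file headers, a detection p-value per probe and array. The authors' quantile normalized intensity table was used as an alternative. The version of BeadStudio was not given in the sources used here, and the submitters' processing notes name limma.

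Signals were quantile normalized over the 12 arrays and log2 transformed, without background correction or filter. A model with a mean per group was fitted to all 12 arrays without a block (R 4.3.3, limma 3.58.1), with Benjamini-Hochberg adjustment over 25697 probes and a threshold of 0.05. Errors are limma's standard errors (SE). Detected means a detection p under 0.01, on all 3 arrays of a group where a gene is called detected. For 16838 genes the probe with the highest mean signal was used in lists. Probes were named with the probe table of the series (23978) or the gene names of the study's supplementary table (293). The fit was tested on simulated data.

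The replicate numbers come from the sample titles. Deviations from the group means correlated between LPS plus hBD3 and untreated arrays of the same number at 0.499, 0.181 and 0.514 over all probes. Between arrays of unlike numbers the correlations ran from -0.476 to 0.104. Deviations sum to 0 within a group, so the correlations of unlike numbers depend on those of like numbers and are no separate ground for pairing. The ground was weakest in replicate 2, whose 0.181 lay close to the 0.104 of LPS plus hBD3 replicate 3 with untreated replicate 2. The numbers were taken as pairs on these same data, and the fit with the block is given where it changes a call. Named are the genes past the test with or without the block, the 8 highest of each of 3 lists (cytokines and chemokines, transcription factors, feedback inhibitors), the 3 with the largest absolute log FC of each other list, all among detected genes, the 15 highest and 10 lowest, the genes raised by LPS alone, and Actb, Gapdh, Tlr4, Ly96 and Cd14. Not all of them are described, and genes outside the rule are marked. Members and lists were chosen with earlier results of these data known. Alternatives were neqc (offset 16), median scaling, the deposited table, detected probes, the block, array weights, a trended robust variance, 1 probe per gene, the 2 groups alone and leaving out each array. Added after seeing the data were the block combined with other settings and hBD3 in place of untreated.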

Additional observations from a re-analysis of the deposited data

How the results depend on the processing

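Over 52 probes of the genes named in the text, the log FC of LPS plus hBD3 against untreated was recomputed under 1086 combinations of gene and alternative. The direction and the side of the threshold were the same in 1062, 22 turned the sign and 2 passed the threshold, Egr1 and Phlda1 with the replicate block, which changed no other call of a named gene. As no probe passed in the main fit, a call could only be gained. The fits that combined the block with another setting are not in these counts and are given below. Under median scaling the log FC was -0.020 for Egr2, -0.053 for Irf1, -0.044 for Sgk1, -0.22 for Ppp1r15a and -0.16 for the brightest Actb probe. With array weights it was 0.0076 for Gapdh and 0.011 for Cd14. Leaving out 1 array gave -0.24 to 0.99 for Egr2, -0.063 to 0.45 for Irf1, -0.0095 to 0.11 for Ppp1r15a, -0.16 to 0.12 for the brightest Actb probe, -0.092 to 0.12 for Gapdh, -0.13 to 0.13 for Cd14, -0.40 to 0.0058 for Tlr4 and -0.95 to 0.010 for Sirpa.

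The number of probes called in LPS plus hBD3 against untreated was 0 under all alternatives without the block, leaving out each array included. With the block it was 2, as with the block on detected probes and on the deposited table, and 0 with the block and median scaling or neqc. Without all arrays of replicate 1 it was 21 with the block, and 0 without those of replicate 2 or 3. For LPS against untreated, 27 probes were called, 72 with the replicate block, 44 with array weights, 44 without LPS replicate 1, 6 with the 2 groups alone, and 19 to 44 when 1 array was left out. For LPS plus hBD3 against LPS, 14 were called, 42 with the block (34 of them lower), 9 with neqc, 0 with the 2 groups alone, and 9 to 29 when 1 array was left out (9 without LPS plus hBD3 replicate 3 or LPS replicate 2 or 3, 29 without LPS replicate 1). The cause was not tested.

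The median log FC of the cytokine list was 0.64 over probes detected on at least 3 arrays, and 0.050 to 0.12 when 1 array was left out. For the transcription factors it was 0.015 under median scaling, 0.18 over detected probes and 0.040 to 0.094 with 1 array left out. For the feedback inhibitors it was 0.22 with neqc, 0.080 under median scaling, 0.29 over detected probes and 0.14 to 0.22 with 1 array left out. Genes not detected have no measured difference here, and 3 arrays per group limit all of these values.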
